A study of Homo sapiens with 6 samples.

Results

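In 786-0 cells labelled SETD2 KO, decitabine was followed by higher mRNA of the complement components C3, CFB, C1R and C1S, and by a change in the balance of the complement regulators. C3 averaged 598 ± 42.8 CPM at 100 nM and 329 ± 11.8 CPM at 300 nM, against 41.8 ± 5.61 CPM with DMSO (SD, n = 2 each; CPM are counts per 1000000 assigned reads). C1S rose 18.1-fold at 100 nM and 12.3-fold at 300 nM, and CFB rose 16.8-fold at 100 nM. In the counts the membrane regulators CD55 and CD59 rose by less, and CFI fell at both doses. CD46 was 2.57-fold lower at 300 nM, although its direction turned when gene length and GC content were modelled. Under that model CD55 at 300 nM stood at a log2 fold change of 2.30, above C1R at 2.11. C3 and C1S were lower at 300 nM than at 100 nM while remaining above DMSO at both doses.

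The genes are 8 complement components and regulators taken by symbol: C3, CFB, CFI, C1R, C1S, CD46, CD55 and CD59. The rule names the genes and uses no measured value, but the members were chosen with earlier results of these data known. They are 8 of 58381 genes in the count files, all 8 were found by identifier, and all 8 passed the filter on low counts that left 23160 genes for testing. All reads came from 6 libraries of polyadenylated RNA. 786-0 is a long-established cell line from a human clear cell renal carcinoma, and every library, the DMSO controls included, carried the label SETD2 KO, a knockout of the histone methyltransferase SETD2. One group (DMSO, n = 2) received the vehicle, another (n = 2) received 100 nM decitabine and the last (n = 2) received 300 nM decitabine, an inhibitor of DNA methyltransferases. Dosing was daily for 3 days, medium was renewed on day 4 and cells were collected on day 5, per the labels. Cells with intact SETD2 were not analysed here, so no value bears on SETD2 itself. The labels do not say whether the knockout line is 1 clone, nor whether libraries of 1 group are separate cultures; the p-values therefore reflect library-to-library spread that may be technical only.

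Reads assigned to genes numbered from 89159112 to 96646427 per library, and 3 reads correspond to between 0.031 and 0.0336 CPM. In a list of 10 clear cell renal carcinoma markers, a mean of 1 CPM was reached by 8 with DMSO, 8 at 100 nM and 9 at 300 nM, while CA9 had 0 reads with DMSO. Their summed level lay at 3175 to 3202 CPM with DMSO, 3484 to 3659 CPM at 100 nM and 4706 to 5607 CPM at 300 nM. The markers did not move together. KRT8 averaged 773, 1093 and 2078 CPM with DMSO, at 100 nM and at 300 nM, and KRT18 105, 206 and 511 CPM. PAX8 fell, at 254, 158 and 80.3 CPM in the same order, as did LHX1, at 64.9, 47.8 and 36.1 CPM. PAX2 stood at 24.0, 15.3 and 17.9 CPM. The summed level of 9 leukocyte markers lay at 4.06 to 4.29 CPM with DMSO, 14.7 to 15.2 CPM at 100 nM and 16.2 to 20.3 CPM at 300 nM, and 1, 3 and 4 of the 9 reached 1 CPM; TYROBP and CD3E had 0 reads with DMSO. The summed level of 10 hepatocyte markers, listed because liver is a main source of plasma complement, lay at 25.3 to 26.6 CPM with DMSO, 92.2 to 95.3 CPM at 100 nM and 107 to 126 CPM at 300 nM. Of these 10, SERPINA1 alone reached 1 CPM in any group, and ALB and TTR had 0 reads both in the 300 nM libraries and in those with DMSO. The part of any of these marker lists in the complement values was not tested. In bulk RNA, fewer cells of a type and less RNA per cell cannot be told apart.

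Complement is a cascade of plasma proteins that marks cells and microbes for clearance and can perforate their membranes. C1r and C1s are the serine proteases of the classical pathway's first complex, factor B supplies the protease of the alternative pathway's C3 convertase, and all routes meet at the cleavage of C3. Host cells hold the cascade in check through factor I, a protease that inactivates C3b and C4b with the help of cofactors such as CD46, through CD55, which speeds the decay of convertases, and through CD59, which blocks assembly of the membrane attack complex. Liver makes most plasma complement, and epithelial cells, those of the renal tubule among them, also make C3 and factor B, with interferons and inflammatory cytokines as known inducers.

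The promoters of 4 members are shown, chosen by outcome: CFB and C1R rose with decitabine while CFI and, at 300 nM, CD46 fell. The fall of CD46 turned when gene length and GC content were modelled. CD55 and CD59 also rose, and their windows are not shown. Each line holds the 250 bases before a RefSeq start site (GRCh38.p14, read 5′ to 3′ on the gene's strand), and capitals mark motif matches. RefSeq windows matched 6 of the 8 members, all but C3 and C1S.
CFB, chr6:31945845-31946094, plus strand: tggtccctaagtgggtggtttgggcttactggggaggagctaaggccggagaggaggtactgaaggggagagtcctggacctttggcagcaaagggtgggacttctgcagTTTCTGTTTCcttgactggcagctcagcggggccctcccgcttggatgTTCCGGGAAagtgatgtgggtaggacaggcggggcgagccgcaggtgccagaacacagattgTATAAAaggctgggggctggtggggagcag
C1R, chr12:7091894-7092143, minus strand: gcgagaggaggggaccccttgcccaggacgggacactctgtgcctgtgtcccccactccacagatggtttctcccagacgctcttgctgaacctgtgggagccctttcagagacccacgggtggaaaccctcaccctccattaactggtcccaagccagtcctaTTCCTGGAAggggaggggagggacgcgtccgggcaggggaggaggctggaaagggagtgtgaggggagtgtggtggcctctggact
CFI, chr4:109802000-109802249, minus strand: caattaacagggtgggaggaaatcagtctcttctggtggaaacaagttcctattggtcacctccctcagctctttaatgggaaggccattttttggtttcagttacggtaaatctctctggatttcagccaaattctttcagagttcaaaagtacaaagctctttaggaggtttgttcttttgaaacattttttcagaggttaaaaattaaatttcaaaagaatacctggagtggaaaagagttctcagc
CD46, chr1:207751788-207752037, plus strand: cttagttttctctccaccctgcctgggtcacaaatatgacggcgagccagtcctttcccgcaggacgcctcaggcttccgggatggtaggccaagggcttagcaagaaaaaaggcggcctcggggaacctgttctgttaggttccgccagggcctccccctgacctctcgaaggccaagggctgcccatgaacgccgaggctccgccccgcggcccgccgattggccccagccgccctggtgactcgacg
Both strands were searched for the interferon-stimulated response element core (GAAA, any 2 bases, GAAA), the STAT-binding GAS element TTCNNNGAA, the NF-kB consensus and TATAAA, which were present in 3.02%, 6.57%, 5.21% and 10.7% of all 35116 windows of this length. The CFB window held the response element core on its reverse strand, with its first base at -140 from the start, a GAS match at -92 and TATAAA at -30, and these did not overlap. The first C1R window held a GAS match at -86, and a second C1R window, farther upstream on the gene's strand, held none of the 4 motifs. No match was found in the CFI and CD46 windows shown or in the CD55 window, and 2 of the 4 CD59 windows held a GAS match, at -184 and at -128. The CFB and C1R windows each held 7 CpG dinucleotides, the CFI window 1 and the CD46 window 19, against a median of 11 over all windows. Methylation was not measured in these libraries.

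C3, on which all activation routes converge (ENSG00000125730.16, GRCh38 chromosome 19, 6677704 to 6730562, minus strand), had 45.8 and 37.8 CPM with DMSO, 568 and 628 CPM at 100 nM, and 337 and 321 CPM at 300 nM. The 3 groups did not overlap, and both doses lay above DMSO with 100 nM highest. C3 rose 14.3-fold at 100 nM (log2 fold change 3.84, SE 0.12, edgeR quasi-likelihood test with Benjamini-Hochberg adjustment over 23160 genes, adjusted p = 1.4e-13) and 7.87-fold at 300 nM (2.98, SE 0.12, adjusted p = 1.1e-12 by the same edgeR test). Per length, as counts per exon length scaled to 1000000 per library (TPM), C3 stood at the 58.2 percentile of 15386 tested coding genes with DMSO, the 96.3 percentile at 100 nM and the 91.0 percentile at 300 nM.

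CFB, which encodes factor B (ENSG00000243649.8, chromosome 6, 31945650 to 31952084, plus strand), had 0.0936 and 0.266 CPM with DMSO, 3.06 and 3.01 CPM at 100 nM, and 1.74 and 1.88 CPM at 300 nM. The DMSO values rest on 9 and 25 reads, and every decitabine library lay above both. CFB passed the filter on low counts through the decitabine libraries, so a call of lower against DMSO was hardly possible. CFB rose by 4.07 on the log2 scale at 100 nM (SE 0.34, edgeR adjusted p = 4.1e-08) and by 3.33 at 300 nM (SE 0.35, edgeR adjusted p = 2.2e-07); without DMSO replicate 2 these were 5.00 and 4.25. Of the exon bases of CFB, 45.0% are shared with AL645922.1, an annotated gene that also spans exons of the neighbouring C2 and had 0 reads in all 6 libraries. Reads in shared exons are given to neither gene under the default counting, so the printed CFB level is low by an unknown amount. Over its unshared exon bases CFB had 0.133 and 0.374 TPM with DMSO, 4.09 and 4.14 TPM at 100 nM, and 1.98 and 2.3 TPM at 300 nM.

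C1S, the protease of the first complex that cleaves C4 and C2 (ENSG00000182326.14, chromosome 12, 6988259 to 7071032, plus strand), had 1.96 and 2.08 CPM with DMSO, 36.4 and 36.8 CPM at 100 nM, and 25.6 and 24.0 CPM at 300 nM. C1S rose by 4.18 on the log2 scale at 100 nM (SE 0.15, edgeR adjusted p = 4.8e-13) and by 3.62 at 300 nM (SE 0.14, edgeR adjusted p = 1.3e-12). By this fit C1S had the highest fold change of the 8 members at either dose, and CFB was below it by less than the SE of CFB. C1R, which activates C1s (ENSG00000159403.15, chromosome 12, 7080209 to 7092607, minus strand), had 1.55 and 1.36 CPM with DMSO, 9.56 and 10.1 CPM at 100 nM, and 7.67 and 6.92 CPM at 300 nM. C1R rose by 2.76 on the log2 scale at 100 nM (SE 0.17, edgeR adjusted p = 9.7e-10) and by 2.32 at 300 nM (SE 0.17, edgeR adjusted p = 3.0e-09). These genes face each other on chromosome 12, 9.2 kb apart. Their levels moved apart per length, since the ratio of C1S to C1R in TPM was 1.11 and 1.34 in the DMSO libraries, 3.35 and 3.18 at 100 nM, and 2.93 and 3.05 at 300 nM.

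**Figure D1:**
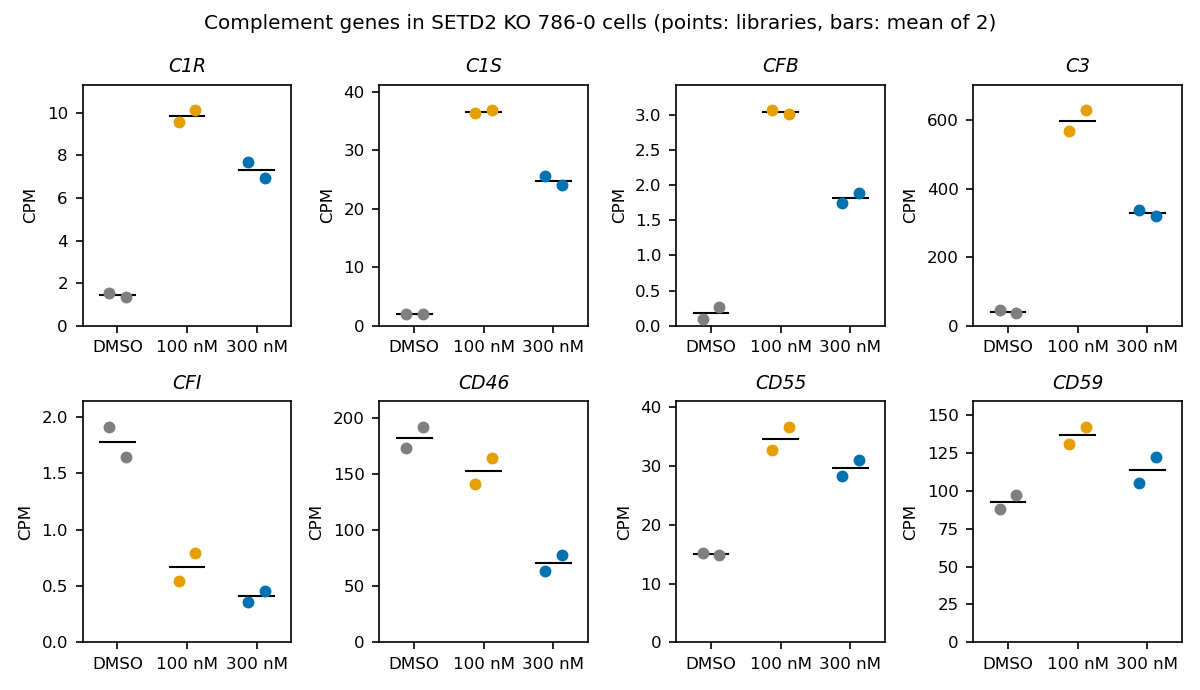
CPM of the 8 complement genes in each library (linear axes from 0, scaled per gene), with 1 point per library and a bar at the mean of each group of 2, in the order DMSO, 100 nM and 300 nM decitabine. C3, CFB, C1R and C1S lie above DMSO in every decitabine library and CFI lies below it, while CD46 is near 70.9 CPM at 300 nM against 183 CPM with DMSO, a direction that turns with length and GC offsets.

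CFI, which encodes factor I (ENSG00000205403.13, chromosome 4, 109740694 to 109802179, minus strand), had 1.91 and 1.64 CPM with DMSO, 0.54 and 0.79 CPM at 100 nM, and 0.362 and 0.454 CPM at 300 nM. Every decitabine library lay below both DMSO libraries. CFI fell by 1.42 on the log2 scale at 100 nM (SE 0.31, edgeR adjusted p = 0.0012) and by 2.11 at 300 nM (SE 0.32, edgeR adjusted p = 2.1e-05). Its counts were 184 and 154 reads with DMSO and at most 73 reads in any decitabine library. With length and GC offsets the log2 fold changes were -0.82 and -0.81, with edgeR adjusted p of 0.027 and 0.03. CFI shares 32.0% of its exon bases with another gene, AC126283.2, which had 0 reads in all libraries.

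CD46, the membrane cofactor of factor I (ENSG00000117335.19, chromosome 1, 207752057 to 207795513, plus strand), had 173 and 192 CPM with DMSO, 141 and 164 CPM at 100 nM, and 63.8 and 78.0 CPM at 300 nM. The 300 nM libraries lay below all others. The 100 nM libraries lay below both DMSO libraries by a margin smaller than the spread within either of these groups. At 300 nM CD46 fell by 1.36 on the log2 scale (SE 0.12, edgeR adjusted p = 2.7e-08). At 100 nM it had a log2 fold change of -0.26 (SE 0.12, edgeR adjusted p = 0.092), which did not pass the threshold of 0.05.

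The transcript of CD46 is long and poor in GC, with 8.71 kb of exon at 37.7% GC, which places it at the 82.3 percentile of length and the 7.1 percentile of GC among 12432 coding genes that averaged at least 1 CPM. Of 1392 of them with GC under 40% and more than 5 kb of exon, a class set after seeing the values, 89.5% were lower at 300 nM with a median log2 fold change of -1.65, against 39.9% of all 12432 with a median of -0.01. With offsets for length and GC, CD46 stood at a log2 fold change of 0.70 at 300 nM (edgeR adjusted p = 1.6e-07) and 0.69 at 100 nM (edgeR adjusted p = 3.4e-07), the opposite direction to the counts without offsets. Whether RNA quality or library preparation differed between groups was not tested.

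CD55, decay-accelerating factor (ENSG00000196352.15, chromosome 1, 207321376 to 207386804, plus strand), had 15.2 and 14.8 CPM with DMSO, 32.7 and 36.7 CPM at 100 nM, and 28.4 and 31.1 CPM at 300 nM. Every decitabine library was above both DMSO libraries, while the 2 doses differed from each other by little more than their own spread. CD55 rose 2.32-fold at 100 nM (log2 fold change 1.21, SE 0.13, edgeR adjusted p = 5.4e-07) and 1.99-fold at 300 nM (0.99, SE 0.13, edgeR adjusted p = 2.4e-06). It lies 365.3 kb from CD46 in the same gene cluster of chromosome 1, and these neighbours had opposite signs at 300 nM in the counts, but the same sign with length and GC offsets, where CD55 was at 2.30.

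CD59, the inhibitor of the membrane attack complex (ENSG00000085063.15, chromosome 11, 33703010 to 33736491, minus strand), had 88.0 and 97.0 CPM with DMSO, 131 and 142 CPM at 100 nM, and 105 and 122 CPM at 300 nM. The 300 nM libraries lay between the other groups without overlapping either. CD59 rose 1.48-fold at 100 nM (log2 fold change 0.56, SE 0.11, edgeR adjusted p = 5.2e-04). At 300 nM it had a log2 fold change of 0.30 (SE 0.11, edgeR adjusted p = 0.026). That call was lost with library totals alone (0.19, edgeR adjusted p = 0.162) and without DMSO replicate 1 (0.22, edgeR adjusted p = 0.267), DMSO replicate 2 (0.36, edgeR adjusted p = 0.063) or 300 nM replicate 2 (0.18, edgeR adjusted p = 0.12). With length and GC offsets it was 1.21.

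At 100 nM against DMSO, 6 of the 8 members were higher, 1 was lower and 1 was not called, where 24.0% of the 23160 tested genes were higher and 18.7% lower, 42.7% in all. The members' median log2 fold change was 1.98, against 0.03 over all tested genes. At 300 nM against DMSO, 6 were higher and 2 lower, where 34.8% of tested genes were higher and 31.1% lower, 65.9% in all, with a median of 1.66 against 0.05. Under the offsets for length and GC, CFI was the 1 member still lower at 300 nM and the other 7 were higher. The comparisons of the 2 doses with DMSO share the DMSO libraries and are not independent. CFB, counted as higher at both doses, passed the filter on low counts through the decitabine libraries. Because the members were chosen with earlier results of these data known, their counts and medians are descriptive.

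**Figure D2:**
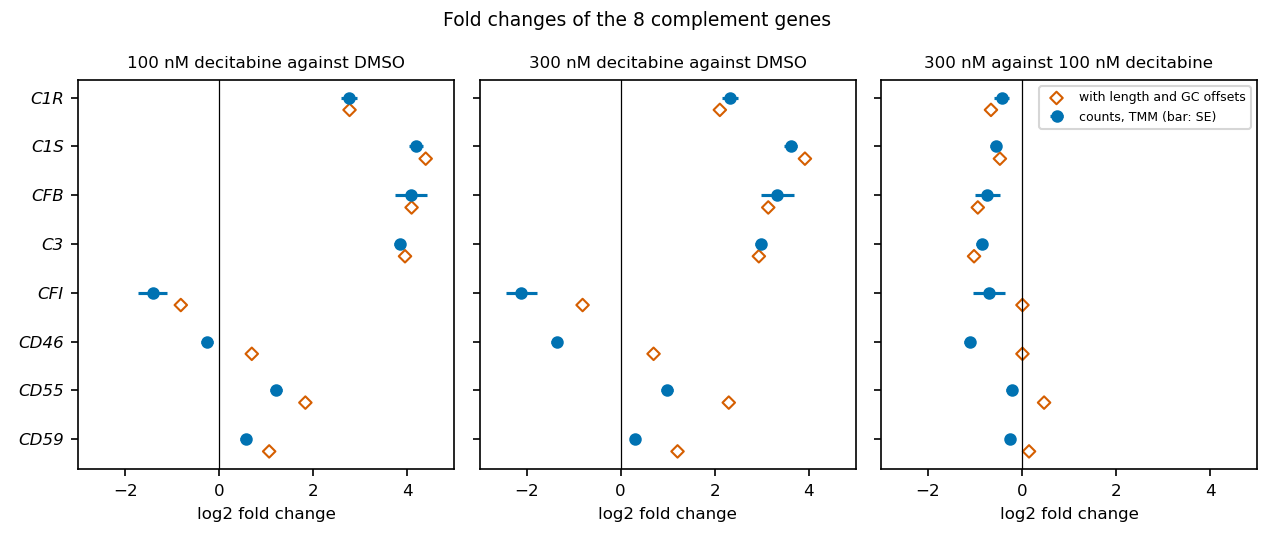
Log2 fold change of each of the 8 members for 100 nM against DMSO, 300 nM against DMSO and 300 nM against 100 nM decitabine, from counts with TMM scaling (filled points, bars of 1 SE) and with length and GC offsets (open diamonds, no error drawn). C3, CFB, C1R and C1S keep values above 2 at both doses against DMSO by either fit, while CD46 is -1.36 at 300 nM without offsets and 0.70 with them. With offsets CD55 is at 2.30 at 300 nM against DMSO, above C1R at 2.11.

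Between the doses, 5 of 8 members were lower at 300 nM than at 100 nM and 0 were higher, where 23.4% of tested genes were lower and 20.0% higher, 43.4% in all. All 8 log2 fold changes were below 0 by edgeR and by DESeq2, so 0 were higher at an unadjusted p as well; with length and GC offsets CD55 was called higher at 0.47. C3 was lower at 300 nM by a log2 fold change of -0.86 (SE 0.11, edgeR adjusted p = 7.7e-06) and C1S by -0.56 (SE 0.12, edgeR adjusted p = 0.0014). CD46 had a log2 fold change of -1.11 between the doses (SE 0.12, edgeR adjusted p = 1.7e-06), which was 0.01 with offsets. Both decitabine groups were above DMSO for C3 and C1S, so 300 nM was the lower of the raised levels.

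The calls for CFB (-0.74, SE 0.27, edgeR adjusted p = 0.033) and C1R (-0.43, SE 0.16, edgeR adjusted p = 0.032) were less stable. CFB passed in 9 and C1R in 7 of 15 alternative settings. For CFB the adjusted edgeR p was 0.075 without 100 nM replicate 1, 0.078 without 100 nM replicate 2, 0.127 without 300 nM replicate 1 and 0.063 without 300 nM replicate 2. For C1R it was 0.051 and 0.050 without DMSO replicate 1 or 2, 0.057 and 0.159 without 100 nM replicate 1 or 2, and 0.104 without 300 nM replicate 2. Log2 fold changes of -0.70 for CFI, -0.22 for CD55 and -0.26 for CD59 did not pass, with edgeR adjusted p of 0.106, 0.157 and 0.061. Over all tested genes 46.0% of calls between the doses were higher, against 35.2% when libraries were scaled by their totals alone, 52.2% with DESeq2 size factors, 52.0% with the DESeq2 Wald test and 52.4% with the deposited log2 matrix.

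Per length, the order of the members changed with decitabine. With DMSO, CD46 was the most abundant at 80.7 ± 5.15 TPM, ahead of CD59 at 34.4 ± 2.16 TPM and C3 at 19.3 ± 2.72 TPM (SD, n = 2). CD55, CFI, C1S, C1R and CFB followed in that order, and C1S and C1R, at 1.20 and 0.988 TPM, were close to each other. At 100 nM C3 led with 266 ± 24.4 TPM, ahead of CD46 at 65.0 ± 8.25 TPM and CD59 at 48.7 ± 3.64 TPM (SD, n = 2). C1S and CD55 changed places between the 2 libraries at that dose, and C1R, CFB and CFI came last. At 300 nM C3 led with 127 ± 2.28 TPM, and CD59 at 35.4 ± 5.74 TPM stood above CD46 at 26.3 ± 5.12 TPM (SD, n = 2), with ranges that did not overlap. The fall of CD46 at 300 nM behind that change of rank is the one that turns to 0.70 with length and GC offsets, and TPM carries no such correction. CD55, C1S, C1R, CFB and CFI followed in both libraries.

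The summed level of the 8 members was 145 and 151 TPM with DMSO, 403 and 459 TPM at 100 nM, and 212 and 233 TPM at 300 nM. C3 supplied 14.7% and 11.5% of that sum with DMSO, 61.6% in both libraries at 100 nM, and 59.1% and 55.1% at 300 nM. The membrane regulators CD46, CD55 and CD59 together supplied 82.7% and 86.0% in the DMSO libraries, 31.1% and 31.7% at 100 nM, and 32.5% and 37.2% at 300 nM. In amount, these 3 summed to 119.9 and 129.8 TPM with DMSO, 126 and 145 TPM at 100 nM, and 68.9 and 86.9 TPM at 300 nM. In these uncorrected values their sum overlapped between DMSO and 100 nM and was lower than both at 300 nM. The order against DMSO rests on CD46, since with length and GC offsets all 3 had positive log2 fold changes at 300 nM against DMSO, of 0.70 for CD46, 2.30 for CD55 and 1.21 for CD59. Between the doses, uncorrected CD55 and CD59 were also lower, averaging 16.2 and 35.4 TPM at 300 nM against 21.8 and 48.7 TPM at 100 nM. With offsets their log2 fold changes between the doses were 0.47 and 0.15. The ratio of C3 to CD46 was 0.276 and 0.207 in the DMSO libraries, 4.2 and 4.0 at 100 nM, and 5.53 and 4.3 at 300 nM. The 300 nM ratio depends on the same uncorrected values of CD46: with offsets, C3 had a log2 fold change of -1.02 and CD46 of 0.01 at 300 nM against 100 nM.

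**Figure D3:**
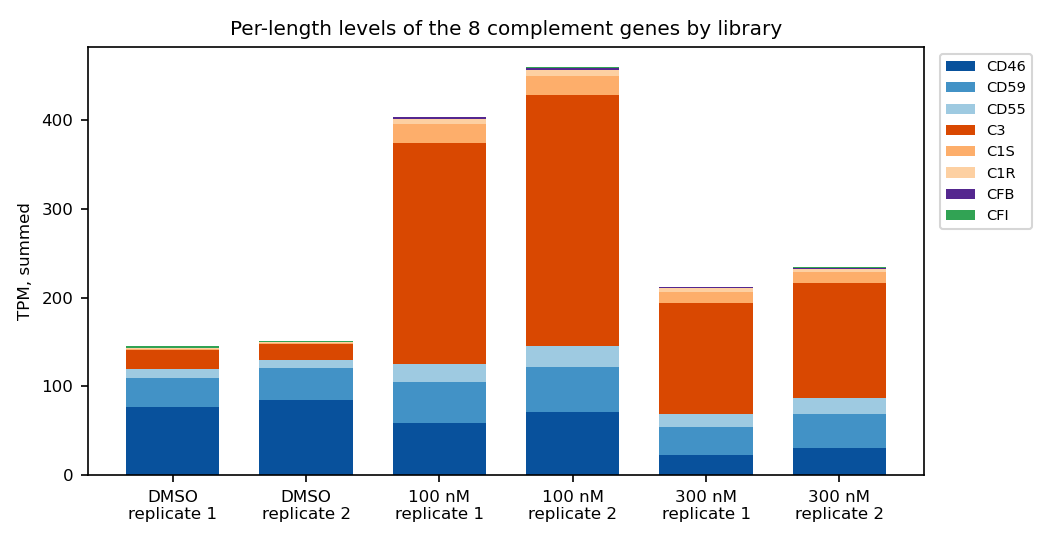
TPM of the 8 members stacked for each of the 6 libraries, in the order DMSO, 100 nM and 300 nM decitabine. CD46 is the main component of both DMSO bars, and C3 makes up 55.1% to 61.6% of every decitabine bar.

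The coding genes averaging at least 10 CPM whose profiles lay nearest to each member over the 6 libraries were found by the Euclidean distance of log2 values centred on the DMSO mean, where 0 is an identical profile. CD46 had SPART at 0.07, TNKS2 at 0.08 and RARS at 0.09, and CD59 had CCNYL1 at 0.06, UBE2B at 0.07 and SLC17A5 at 0.10. CD55 lay nearest to FUCA1 at 0.16, LAP3 at 0.18 and TFPI2 at 0.20. C1R lay nearest to ODF3B at 0.22, NUPR1 at 0.51 and ZC3H12A at 0.55, and C3 to C15orf48 at 0.55, IL4I1 at 0.58 and CMPK2 at 0.62. C1S lay nearest to SPRY4 at 0.57, EPSTI1 at 0.61 and NPR1 at 0.73, and CFB to IL4I1 at 1.08, NPR1 at 1.17 and COL6A3 at 1.20. CFI lay nearest to HIBCH at 0.38 and to HIPK2 and CGNL1 at 0.41 each. Among the members themselves, CFB and C1S were the nearest pair at 0.97, C3 and C1S followed at 1.03, and CFI and C1S were the farthest apart at 11.26. These distances describe 6 libraries in 3 groups and share depth and dose.

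A list of 50 other complement genes gave the setting: 29 passed the filter, 21 did not, and 7 of those had 0 reads in all 6 libraries (FCN1, FCN2, C8A, C8B, CFHR2, CFHR5 and CR2). Of the 29 tested, 18 were higher and 3 lower at 100 nM against DMSO, and 20 were higher and 3 lower at 300 nM. Over all 23160 tested genes, 24.0% were higher and 18.7% lower at 100 nM, and 34.8% were higher and 31.1% lower at 300 nM. C5AR2 and CSMD1 had 0 reads in both DMSO libraries, and COLEC10, COLEC11, SERPING1, C4BPB and CPN2 had at most 7 in either. These genes passed the filter through the decitabine libraries, so against DMSO they could only be called higher. C2 (9 and 20 reads with DMSO), VTN (9 and 41) and CD93 (2 and 20) also passed it through the decitabine libraries. For these too a call of lower against DMSO was hardly possible. The median log2 fold change among these 29 genes was 1.88 for 100 nM and 2.39 for 300 nM, against 0.03 and 0.05 over all tested genes. Between the doses, 8 were higher at 300 nM and 5 lower, among them C4BPB (log2 fold change 2.37) and ITGB2 (1.32) higher, and C5 (-1.78) lower. The calls for CFD (0.43) and ITGAX (-0.41) between the doses were lost when either DMSO library was left out. Values are given for the 16 that averaged at least 1 CPM. The list was chosen with earlier results of these data known, so its counts and medians are descriptive.

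The 7 tested genes listed as receptors were all higher at both doses, where 24.0% of all tested genes were higher at 100 nM and 34.8% at 300 nM. Among the 7, C5AR2 had 0 reads in both DMSO libraries and could only be called higher. CD93 had 2 and 20 reads with DMSO and passed the filter through the decitabine libraries. C3AR1, the C3a receptor, averaged 1.25 CPM with DMSO, 5.93 CPM at 100 nM and 3.67 CPM at 300 nM, and C5AR1, a C5a receptor, averaged 0.269, 1.39 and 1.41 CPM in the same order. The integrin chains of complement receptors behaved alike in sign: ITGAM had log2 fold changes of 2.59 and 2.92 at 100 nM and 300 nM, ITGAX of 1.97 and 1.56, and their shared partner ITGB2 of 1.55 and 2.87. These integrins are also leukocyte genes, and the summed leukocyte marker levels given above were higher in the decitabine groups. TYROBP averaged 0, 3.86 and 5.48 CPM with DMSO, at 100 nM and at 300 nM. In the same order FCER1G averaged 0.136, 3.01 and 4.26 CPM, and CSF1R 3.36, 6.91 and 7.16 CPM. PTPRC, with at most 10 reads in any library, did not rise, at 0.0636, 0.0579 and 0.0242 CPM. The part of leukocyte genes in these values was not tested. Both tested genes of the alternative pathway were higher at both doses: CFD, which cleaves bound factor B, had log2 fold changes of 2.00 and 2.44, and CFP, properdin, of 1.43 and 1.87. With offsets the CFD values were 1.24 and 1.02.

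Of 6 tested soluble regulators, 4 were higher and 2 were not called at 100 nM, and 5 were higher and 1, with a mean under 1 CPM, was lower at 300 nM. C4BPB, CPN2 and SERPING1 are among the genes that could only be called higher against DMSO, and VTN too passed the filter through the decitabine libraries. CLU, clusterin, which binds the terminal complex, averaged 24.0 CPM with DMSO, 62.7 CPM at 100 nM and 117 CPM at 300 nM, and it was higher at each step. C4BPB, a chain of C4b-binding protein, had log2 fold changes of 4.72 and 7.08, VTN, vitronectin, of 2.07 and 3.10, and CPN2, a subunit of the anaphylatoxin-inactivating carboxypeptidase N, of 5.30 and 5.51. These 3 had means of 0.037 CPM for C4BPB, 0.265 CPM for VTN and 0.047 CPM for CPN2 with DMSO, and their folds moved with 1 library: VTN was 1.35 and 2.37 without DMSO replicate 1 and 3.55 and 4.57 without DMSO replicate 2, CPN2 was 6.40 and 6.60 without DMSO replicate 1 and 4.69 and 4.89 without DMSO replicate 2, and C4BPB was 5.50 and 7.86 without DMSO replicate 2.

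Of 9 tested genes of classical and lectin initiation, 3 were higher and 1 lower at either dose, or 33.3% higher, where 24.0% of all tested genes were higher at 100 nM and 34.8% at 300 nM. COLEC10 and COLEC11 are among the genes that could only be called higher against DMSO, and C2 too passed the filter through the decitabine libraries. MASP2, a protease of the lectin pathway, had log2 fold changes of -1.02 and -2.29, the first of which was not called without 100 nM replicate 1 (-0.79, edgeR adjusted p = 0.07). C1RL, a C1r-like protease that overlaps C1R in 672 exon bases, averaged 18.6 CPM at 100 nM against 11.9 CPM with DMSO (0.64) and was not called at 300 nM (0.05, edgeR adjusted p = 0.783). C4A and C4B are near-identical copies whose reads cannot be assigned with certainty, and neither was called.

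In the terminal pathway 3 genes were tested. C5, the start of the membrane attack complex, averaged 12.4 CPM with DMSO, 6.05 CPM at 100 nM and 1.76 CPM at 300 nM, with log2 fold changes of -1.04 and -2.82. With length and GC offsets these were -0.30, not called (edgeR adjusted p = 0.114), and -1.20. C8G, a chain of C8, rose by contrast, with 1.88 and 2.96, which were 0.97 and 1.32 with offsets. Of the membrane regulators beside the members, SUSD4 was lower at 100 nM (-1.15) and had -0.33 at 300 nM, which did not pass (it was called at -0.53 without 300 nM replicate 1, edgeR adjusted p = 0.032, at -0.44 with library totals alone and at -0.52 with offsets).

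**Figure D4:**
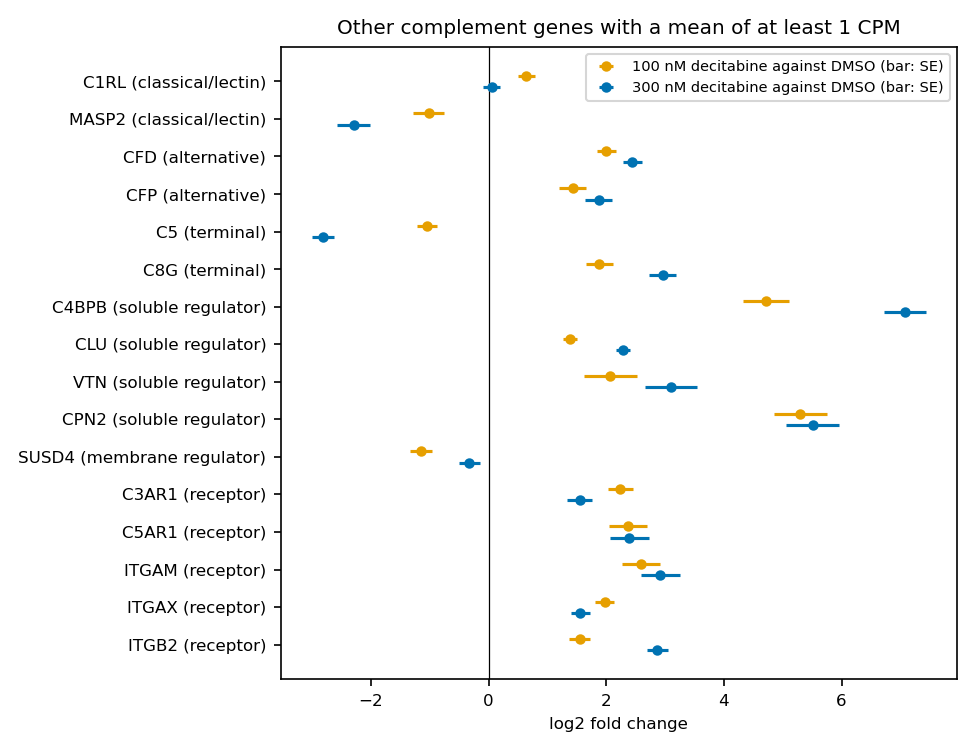
Log2 fold change of the 16 other complement genes that averaged at least 1 CPM, for 100 nM and 300 nM against DMSO, with bars of 1 SE, grouped by role. All 5 receptor genes plotted lie above 0 at both doses. C5, MASP2 and SUSD4 lie below 0 at both, SUSD4 at 300 nM (-0.33) without a call.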

How the data were processed

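The authors deposited counts per gene as whole numbers, made with featureCounts 1.5.0-p3 on GENCODE v28 models, per the file headers; no option for pairs or strand appears in the recorded commands, so each mate counted by itself and sense reads could not be told from antisense. STAR, SAMtools and DESeq2 are named, without settings, in the submitters' processing notes. Those notes name hg19, whereas all 56933 genes with the same versioned identifier in GENCODE v29 had its GRCh38 coordinates, which are the ones printed. The deposited log2 matrix is named by its authors as VSN data and was read as variance-stabilised log2 values. Its settings are not given in the sources used here.

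Counts were tested with edgeR 4.0.16 (quasi-likelihood, TMM scaling, all 6 libraries in 1 fit, filterByExpr) in R 4.3.3, with Benjamini-Hochberg adjustment over 23160 genes and a threshold of 0.05. The biological coefficient of variation was 11.8%, and 3 residual degrees of freedom remained. The test was checked on simulated data. CPM used TMM-scaled totals, TPM used exon lengths from the file headers, and log2 values for distances used a prior count of 2. Length and GC offsets came from a smooth fit (mgcv 1.9.3) over 12432 coding genes, recentred on the median gene. DESeq2 1.42.0 and limma 3.58.1 served as alternatives, beside other scalings, no filter, a replicate block, only the groups compared, the deposited log2 matrix and leaving out each library. Depth was 89159112 to 96646427 reads per library; floors of 3 reads cover counting error only, and mates counted apart are not independent. Other genes were named where their mean was at least 1 CPM. The members and lists were chosen with earlier results of these data known. A listed gene and a marker are not reported here.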

Additional observations from a re-analysis of the deposited data

How the results depend on the processing

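Deviations of same-numbered libraries correlated at 0.02, 0.01 and 0.07, so no strong pairing by replicate number was seen over all genes. These correlations cannot show that the libraries were unpaired. With the replicate block CD46 at 100 nM was called (-0.26, edgeR adjusted p = 0.012), as was CD59 between the doses (-0.27, edgeR adjusted p = 0.009). C3, CFB, C1R, C1S and CD55 kept their direction and call against DMSO under all 15 alternatives, as did CFI, and the deposited log2 matrix gave 3.21 and 2.59 for CFB at 100 and 300 nM, 2.67 and 4.90 for C4BPB, 3.40 and 3.62 for CPN2, and 2.00 for ITGAM at 100 nM. Members lower at 100 nM numbered 2 in place of 1 with DESeq2 size factors, the replicate block, only the 2 groups compared or the DESeq2 Wald test, and 1 to 2 with 1 library left out, the second gene being CD46. With length and GC offsets, with or without the block, members lower at 300 nM numbered 1 in place of 2, and 1 member in place of 0 was higher between the doses. Members lower between the doses numbered 3 in place of 5 with the DESeq2 Wald test or the deposited log2 matrix, and 3 to 4 with 1 library left out. Other complement genes higher between the doses numbered 5 in place of 8 with offsets. Over all genes, 2883 to 5036 were lower at 100 nM and 2896 to 4901 higher between the doses with 1 library left out.

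Under the offsets CD46 became 0.69 at 100 nM, 0.70 at 300 nM and 0.01 between the doses, and between the doses CFI became 0.01, CD55 0.47 and CD59 0.15. C1RL at 300 nM -0.11 and CFD between the doses -0.22 (-0.23 with the block). C1RL at 300 nM was also -0.07 with library totals alone and from -0.02 to 0.11 with 1 of the 300 nM libraries left out. The offsets are built to remove trends with length and GC; the cause of those trends was not tested. Library totals alone put the median gene at -0.16 between the doses, against -0.04. Depth limits CFB, VTN, CPN2 and C4BPB with DMSO.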

Other observations

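Among the complement genes tested with a mean under 1 CPM, 3 gave counts that may be worth a second look, and they were chosen after their values were seen. COLEC10, a collectin of the lectin pathway, had 1 and 0 reads with DMSO, 101 and 96 reads at 100 nM, and 103 and 126 reads at 300 nM. C2, which neighbours CFB and supplies the protease of the classical C3 convertase, had 9 and 20 reads with DMSO, 76 and 79 reads at 100 nM, and 78 and 70 reads at 300 nM, with log2 fold changes of 2.40 and 2.45 (edgeR quasi-likelihood test, adjusted p = 3.0e-04 and 1.2e-04). SERPING1, the inhibitor of C1r and C1s, had 0 and 2 reads with DMSO, 4 and 8 reads at 100 nM, and 24 and 26 reads at 300 nM. All 3 passed the filter on low counts through the decitabine libraries, so a call of lower against DMSO was hardly possible. Each remained far below C1S in CPM at both doses.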
